A study of Mus musculus with 6 samples.

Results

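Steps of thyroid hormone action, from entry into the brain to the transcriptional response, were followed through 5 genes: Slco1c1, Dio2, Crym, Hr and Klf9. They were taken by gene name from the deposited gene table. All 5 were found among its 31838 genes, and all 5 passed the filter on low counts that left 20428 genes for testing. The study sequenced polyadenylated RNA from the hippocampus of wild-type C57BL/6 mice aged 4 months. Treated mice had received 50 mg/kg/day of the plasticiser butyl benzyl phthalate (BBP) and control mice corn oil, and each group had 3 libraries. The title of the series ties the compound to cognitive impairment. Whole hippocampus holds many cell types, so fewer cells of a type and less RNA per cell cannot be told apart, and no label ties a library to its own animal, so p-values measure the spread between libraries, which may be technical.

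Thyroid hormone reaches the brain mainly as the prohormone thyroxine (T4), which membrane transporters carry across the endothelium and into astrocytes. In astrocytes the type 2 deiodinase removes an outer-ring iodine and yields the active hormone T3, while the neuronal type 3 deiodinase inactivates both. T3 then enters neurons and binds nuclear receptors that switch genes such as Hr and Klf9 on in the rodent brain, and mu-crystallin, the product of Crym, binds T3 in the cytosol.

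No member differed between BBP and corn oil past the threshold: 0 of the 5 genes passed edgeR's quasi-likelihood test at an adjusted p under 0.05, where 0 of 20428 genes (0%) did. DESeq2 called 3 genes (0.00943% of those it tested) and limma 0, with none of the 5 among them. At an unadjusted p under 0.05 edgeR gave 685 genes, and 1 of the 5, Klf9, was among them, against 3.35% of all genes. The values by library nonetheless varied in distinct ways. Klf9 was slightly higher in every BBP library, Crym was low in BBP libraries 1 and 2 but not in BBP library 3, Hr was high in the same 2 libraries, and Slco1c1 stood out in BBP library 1.

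The libraries were of similar depth, with 62477604 to 68422361 estimated counts each, but not of similar composition. BBP library 1 stood apart. Its 12 markers of striatal medium spiny neurons summed to 208 FPKM (fragments per kilobase of transcript, scaled to library size), against 49.4 to 95.5 in the other 5 libraries, and its isocortex markers to 118 FPKM, against 43.4 to 51.7. Its dentate granule, CA1, and CA2 and CA3 neuron markers had the lowest sums of the 6 libraries. BBP library 2 had 11.5% of its counts on mitochondrial genes, against 7.11% to 8.57% in the others. No marker of these lists was at 0 in any library.

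**Figure D1:**
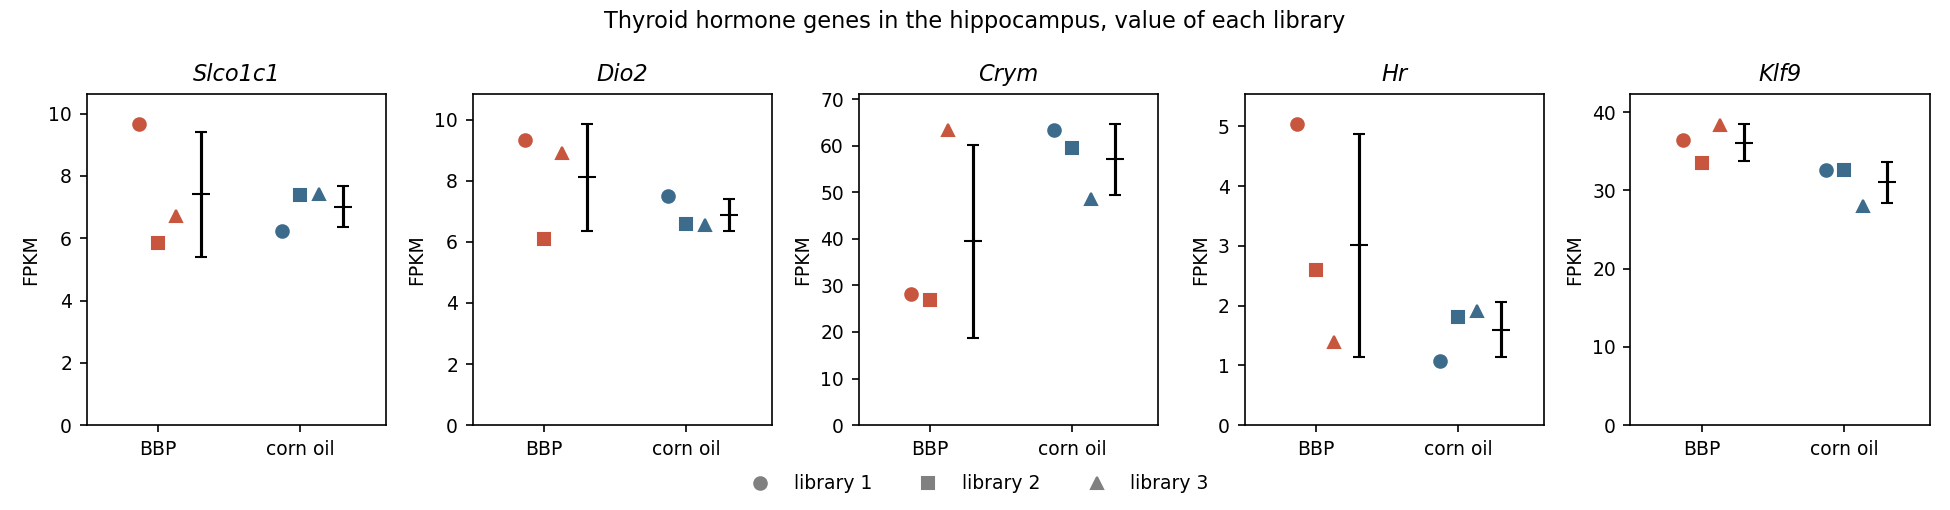
FPKM of each of the 5 genes (vertical axes, starting at 0) in the 3 BBP and 3 corn oil libraries, with marker shapes for library 1, 2 and 3 and black bars for mean ± SD. The BBP libraries lay above all corn oil libraries for Klf9, while the groups overlapped for the other 4 genes.

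By level per transcript length, Crym and Klf9 were the abundant members and Hr the scarcest. In corn oil the mean FPKM was 57.1 ± 7.64 for Crym, 31.1 ± 2.62 for Klf9, 7.02 ± 0.673 for Slco1c1, 6.88 ± 0.537 for Dio2 and 1.598 ± 0.457 for Hr (SD, n = 3). Slco1c1 and Dio2 did not differ beyond their spread, and Dio2 was the higher of the pair in 2 of 3 BBP libraries and in 1 of 3 corn oil libraries. Crym exceeded Klf9 in 1 of 3 BBP libraries and in 3 of 3 corn oil libraries. Hr was the lowest of the 5 in every library. Hr also rested on the fewest reads, 523 to 2467 deposited counts per library. If 4 deposited counts stand for 1 fragment, an assumption not settled here, counting error alone gives a coefficient of variation of 8.75% at its lowest library and 1.97% at the lowest library of Klf9.

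The transporter gene Slco1c1 encodes OATP1C1, which moves T4 across the rodent blood-brain barrier and into astrocytes. It lies on chromosome 6, 141524368 to 141569796 (mm10, plus strand). Its level was 9.68, 5.85 and 6.72 FPKM in BBP libraries 1 to 3, against 6.24, 7.39 and 7.42 FPKM in corn oil libraries 1 to 3. BBP library 1 was the highest and BBP library 2 the lowest of the 6, so the corn oil values lay within the BBP range. The log2 fold change was 0.10 ± 0.17 (SE), or 1.07-fold with a 95% interval of 0.818 to 1.40 (edgeR, adjusted p = 0.966). Without BBP library 1 the log2 fold change was -0.12.

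Slco1c1 is made by endothelial cells and astrocytes, and its level was also set against their markers. Summed FPKM of the 10 endothelial markers, led by the glucose transporter gene Slc2a1 and by Ly6c1, ranged from 76.9 to 105 in BBP and from 85.7 to 93.2 in corn oil. The 12 astrocyte markers, led by the glutamate transporter gene Slc1a2 and by Atp1b2, summed to 472 to 527 FPKM in BBP and 442 to 470 in corn oil. Relative to the endothelial list, Slco1c1 averaged 0.31 ± 0.20 in BBP and 0.36 ± 0.07 in corn oil on the log2(FPKM + 1) scale (SD, n = 3), a difference of -0.05 (exact permutation test, two-sided p = 0.8). Relative to the astrocyte list the difference was -0.04 (exact permutation test, two-sided p = 0.9). With 3 libraries a group this test cannot go below 0.1, and over the 6 such comparisons made here the Benjamini-Hochberg adjusted p was 0.6 to 0.9.

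The activating enzyme gene Dio2 encodes the type 2 deiodinase, an astrocyte selenoprotein in brain. It occupies chromosome 12, 90724552 to 90738438 (mm10, minus strand). Dio2 had 9.34, 6.10 and 8.90 FPKM in BBP libraries 1 to 3, against 7.50, 6.58 and 6.56 FPKM in corn oil libraries 1 to 3. BBP libraries 1 and 3 were above all corn oil libraries, and BBP library 2 was below them. The log2 fold change was 0.25 ± 0.14 (SE), or 1.19-fold with a 95% interval of 0.955 to 1.48 (edgeR, unadjusted p = 0.106, adjusted p = 0.953). It was 0.39 without BBP library 2 (edgeR, unadjusted p = 0.00406, adjusted p = 0.981, the range over 16 alternative fits being 0.759 to 0.9999). Without BBP library 1 the log2 fold change was 0.15, and without BBP library 3 it was 0.20 (edgeR, unadjusted p = 0.299 and 0.246). Relative to the astrocyte list Dio2 averaged -1.72 ± 0.30 in BBP and -1.82 ± 0.13 in corn oil on the log2(FPKM + 1) scale (SD, n = 3), and the difference of 0.10 had a two-sided p of 0.6 (exact permutation test). It was -0.03 without BBP library 1. A gene of the opposite strand, Gm26512, overlaps the first 238 bases of Dio2 and had 40 to 82 counts per library, against 2486 to 3839 for Dio2.

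The start regions of Dio2, the activation step, and of Klf9, the gene whose groups did not overlap, are shown for their promoter motifs. The sequences are those of RefSeq on GRCm38.p6, 250 bases before to 50 after the annotated start, in lower case with motif matches in capitals. The Dio2 window is chr12:90738989-90739288 (minus strand), 600 bases upstream of the start in the deposited table, and the Klf9 window is chr19:23140976-23141275 (plus strand).
Dio2: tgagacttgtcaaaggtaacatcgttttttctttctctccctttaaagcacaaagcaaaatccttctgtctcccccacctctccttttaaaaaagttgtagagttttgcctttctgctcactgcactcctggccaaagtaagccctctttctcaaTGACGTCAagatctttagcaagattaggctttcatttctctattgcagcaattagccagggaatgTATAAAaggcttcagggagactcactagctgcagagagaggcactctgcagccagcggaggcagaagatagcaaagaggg
Klf9: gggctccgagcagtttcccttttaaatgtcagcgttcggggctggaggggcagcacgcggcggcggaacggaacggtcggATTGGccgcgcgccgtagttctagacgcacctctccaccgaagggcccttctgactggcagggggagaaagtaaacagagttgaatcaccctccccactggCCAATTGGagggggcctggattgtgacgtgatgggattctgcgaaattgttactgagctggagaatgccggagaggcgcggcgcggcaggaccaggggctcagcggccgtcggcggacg
In Dio2 the capitals mark TGACGTCA, the cAMP response element, 95 bases before the start and TATAAA, the TATA box, 30 bases before it. In Klf9 they mark CCAAT or its complement ATTGG, 170, 69 and 66 bases before the start, the last 2 overlapping in an 8-base palindrome. TGACGTCA, its own complement, was in 1.79% of 32851 RefSeq windows of this length. TATAAA, read in the direction of transcription, was in 8.32%, and CCAAT on either strand in 37.4%. AGGTCA, the half-site of nuclear receptors for thyroid hormone, was searched on both strands and was in 16.3% of all windows but in neither of these nor in that of Slco1c1. The lack of a match says only that these letters are not in this window.

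The inactivating counterpart Dio3, which encodes the type 3 deiodinase, had lower levels in BBP. Dio3 stood at 1.64, 1.73 and 2.61 FPKM in BBP libraries 1 to 3, against 2.66, 2.84 and 2.94 FPKM in corn oil libraries 1 to 3. All BBP values were below all corn oil values, by a small margin in BBP library 3, and 5.25% of tested genes had such groups with BBP lower. Its log2 fold change was -0.48 ± 0.20 (SE, edgeR, unadjusted p = 0.0433, adjusted p = 0.953), from 236 to 455 deposited counts per library. It was -0.35 without BBP library 1 and -0.69 without BBP library 3 (edgeR, unadjusted p = 0.00564, adjusted p = 0.624). With any other single library left out the unadjusted p was 0.0700 to 0.113 (edgeR). Dio1, the type 1 deiodinase gene of liver and kidney, had 4 deposited counts in each of corn oil libraries 1 and 2, 0 in the other libraries, and was not tested.

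The ratio of Dio2 to Dio3 FPKM, formed after both sets of values were seen, was 5.70, 3.53 and 3.404 in BBP libraries 1 to 3, against 2.82, 2.32 and 2.23 in corn oil libraries 1 to 3. The BBP ratios lay above the corn oil ratios in all 3 libraries. The mean log2 ratio was 2.03 in BBP and 1.29 in corn oil. The difference was 0.74 (exact permutation test, two-sided p = 0.1, the smallest that 3 against 3 allows), and 0.50 to 0.88 with each library left out. Dio3 alone already separated the groups, so the ratio in part repeats Dio3, and its p adds no independent evidence. For single genes, 9.65% of those tested had groups that did not overlap in FPKM. The share for ratios picked after their values were seen was not computed.

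**Figure D2:**
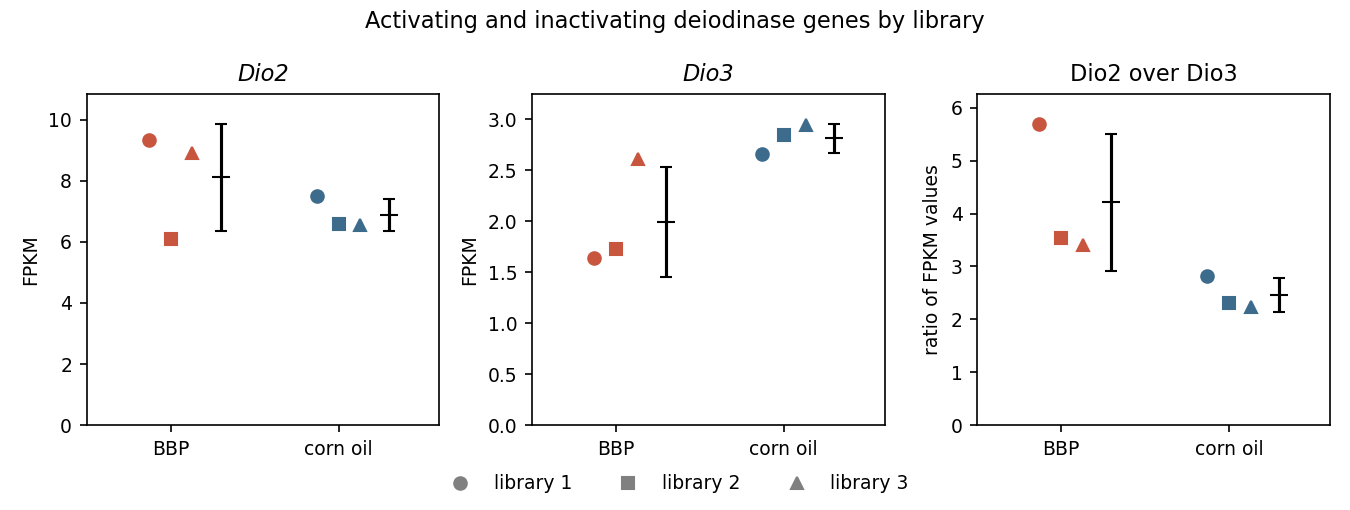
FPKM of Dio2 and Dio3 and the ratio of their FPKM values (vertical axes, starting at 0) in each BBP and corn oil library, with bars for mean ± SD. The Dio2 groups overlapped, the Dio3 values of BBP were all below those of corn oil, and the ratio was 3.404 to 5.70 in BBP and 2.23 to 2.82 in corn oil.

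Crym encodes mu-crystallin, an NADPH-dependent protein that binds T3 in the cytosol. The gene is on chromosome 7, 120186380 to 120202111 (mm10, minus strand). Crym had 28.2, 27.0 and 63.4 FPKM in BBP libraries 1 to 3, against 63.3, 59.5 and 48.6 FPKM in corn oil libraries 1 to 3. BBP libraries 1 and 2 were well below every corn oil library, and BBP library 3 was level with the highest corn oil library. The spread within BBP was therefore wide. The SD of log2 CPM, counts scaled to the library total, was 0.65 in BBP and 0.20 in corn oil. Of 13233 genes with a mean of at least 1 FPKM, 95.9% had a smaller SD than Crym in BBP and 83.7% in corn oil. The median SD over these genes was itself larger in BBP, at 0.18 against 0.09 in corn oil.

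With all libraries the log2 fold change of Crym was -0.52 ± 0.29 (SE), or 0.696-fold with a 95% interval of 0.436 to 1.11 (edgeR, unadjusted p = 0.112, adjusted p = 0.953). The value moved with each BBP library. It was -0.325 without BBP library 1 and -0.34 without BBP library 2 (edgeR, unadjusted p = 0.277 and 0.324). Without BBP library 3 it was -1.005 ± 0.13 (edgeR, unadjusted p = 0.000142, adjusted p = 0.624, the range over 16 alternative fits being 0.624 to 0.9999), and with BBP libraries 1 and 2 left out it was 0.12. The fit without BBP library 3 had 1530 genes at an unadjusted p under 0.05, against 685 with all libraries.

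Crym was also set against markers of CA1, dentate granule and striatal medium spiny neurons, the last of which are not hippocampal. In BBP library 1 the CA1 list median was -0.49 and the dentate granule list median -0.94 relative to the corn oil mean on the log2 CPM scale, where Crym stood at -1.02. In BBP library 2 those medians were 0.07 and 0.47, and Crym stood at -0.97. Relative to the mean of the 6 CA1 markers, led by Wfs1 and Fibcd1, Crym averaged 1.66 ± 0.51 in BBP and 2.17 ± 0.12 in corn oil on the log2(FPKM + 1) scale (SD, n = 3), a difference of -0.51 (exact permutation test, two-sided p = 0.2). The corresponding differences were -0.55 against the 7 dentate granule markers, led by Rasl10a and C1ql2 (exact permutation test, two-sided p = 0.2), and -0.97 against the 12 striatal markers, led by Penk and Ppp1r1b (exact permutation test, two-sided p = 0.4). Each depended on single libraries. Against the striatal list the difference was -0.27 without BBP library 1 and -1.63 without BBP library 3. Without BBP library 2 it was -0.26 against the CA1 list and -0.18 against the dentate granule list, and without BBP library 3 it was -0.77 and -0.80 against these lists.

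**Figure D3:**
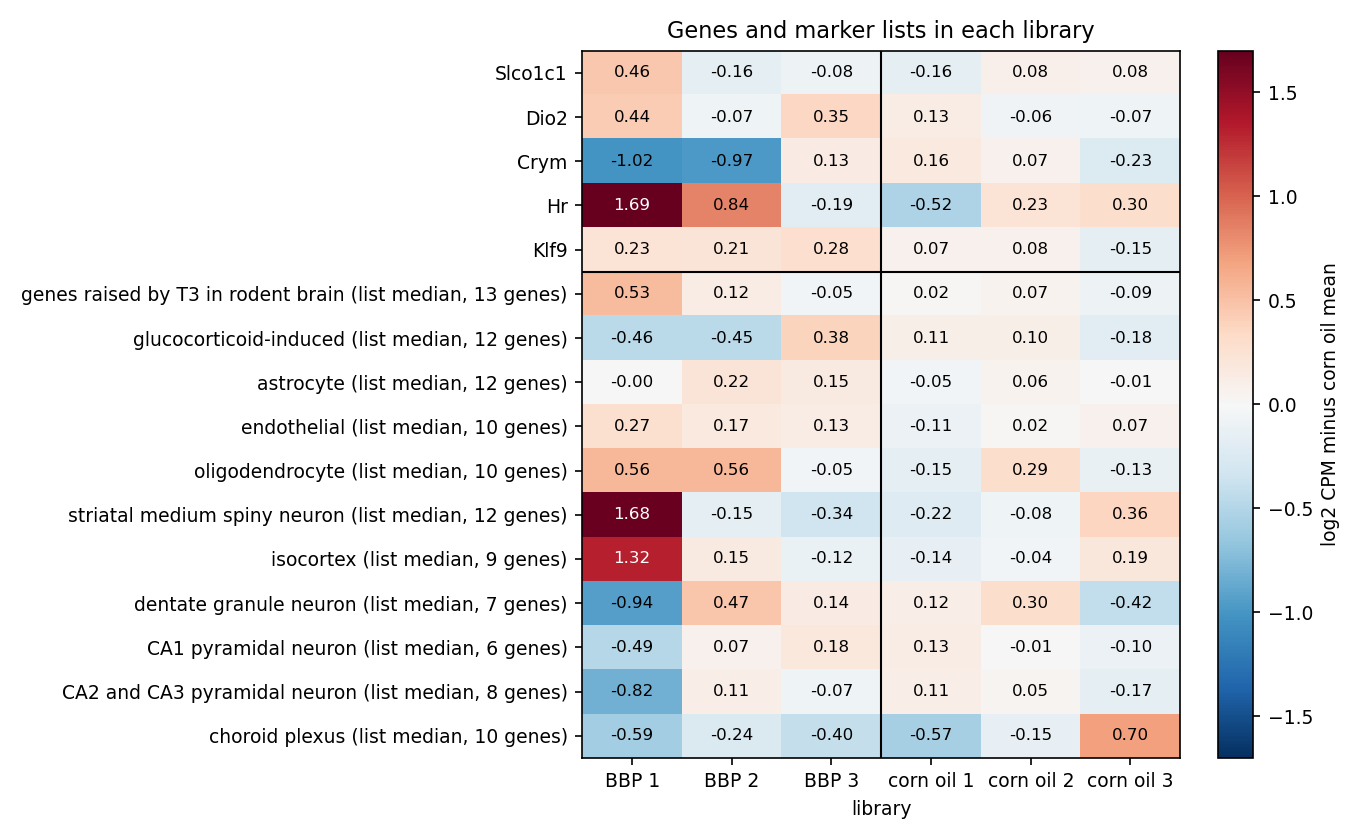
Log2 CPM minus the corn oil mean, for the 5 genes (top rows) and for the median of each gene list (lower rows), in each BBP and corn oil library, coloured red for higher and blue for lower. Crym was at -1.02 and -0.97 in BBP libraries 1 and 2 and at 0.13 in BBP library 3, while the striatal list median was 1.68 in BBP library 1 and at most 0.36 in the other 5.

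Hr encodes Hairless, a corepressor that binds thyroid hormone receptors and is itself induced by T3 in the rodent brain. It lies on chromosome 14, 70552212 to 70573548 (mm10, plus strand). Hr had 5.04, 2.60 and 1.38 FPKM in BBP libraries 1 to 3, against 1.07, 1.81 and 1.91 FPKM in corn oil libraries 1 to 3. BBP libraries 1 and 2 were above every corn oil library, and BBP library 3 lay inside the corn oil range. The highest BBP library was 3.65 times the lowest, and 98.7% of the 13233 ranked genes had a smaller log2 SD in BBP. Hr varied widely in corn oil too, where 97.3% of the ranked genes had a smaller log2 SD.

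The log2 fold change of Hr was 0.93 ± 0.43 (SE), larger in size than those of the other members in this fit, or 1.91-fold with a 95% interval of 0.968 to 3.77 (edgeR, unadjusted p = 0.0594, adjusted p = 0.953). It was 0.37 ± 0.33 without BBP library 1 and 0.99 ± 0.51 without BBP library 2 (edgeR, unadjusted p = 0.286 and 0.0966). Without BBP library 3 it was 1.29 ± 0.31 (edgeR, unadjusted p = 0.00470, adjusted p = 0.624, the range over 16 alternative fits being 0.624 to 0.9999). With BBP libraries 1 and 2 left out it was -0.24. Striatal and isocortex markers moved with Hr in BBP library 1, where their list medians were 1.68 and 1.32 and Hr was at 1.69 relative to the corn oil mean on the log2 CPM scale. In BBP library 2 the medians were -0.15 and 0.15 and Hr was at 0.84. The part of these cells in the level of Hr was not tested.

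Klf9 encodes a zinc-finger transcription factor induced by T3 and by glucocorticoids. It occupies chromosome 19, 23141226 to 23168134 (mm10, plus strand). Klf9 had 36.5, 33.5 and 38.3 FPKM in BBP libraries 1 to 3, against 32.6, 32.6 and 28.0 FPKM in corn oil libraries 1 to 3. The lowest BBP library was just above the highest corn oil library. Klf9 was the 1 member of the 5 with groups that did not overlap, where 9.65% of tested genes had such groups and 4.4% had them with BBP higher.

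The log2 fold change of Klf9 was 0.24 ± 0.09 (SE), or 1.18-fold with a 95% interval of 1.02 to 1.36 (edgeR, unadjusted p = 0.0282, adjusted p = 0.953). The BBP libraries lay close together, with a log2 SD of 0.03 that only 3.16% of the ranked genes undercut. The log2 fold change stayed between 0.17 and 0.28 with each library left out, the lowest value being that without corn oil library 3, where the unadjusted p was 0.115 (edgeR, adjusted p = 0.999, the range over 16 alternative fits being 0.680 to 0.9999). Limma on log2(FPKM + 1) gave 0.21 ± 0.10 with an unadjusted p of 0.0619 and an adjusted p of 0.948.

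Since Klf9 also answers to glucocorticoids, 12 other genes induced by them were set beside it. Of these, 3 were higher and 9 lower in BBP, with 0 at an unadjusted p under 0.05 and a median log2 fold change of -0.09 against 0.01 over all tested genes. The list median was -0.46, -0.45 and 0.38 in BBP libraries 1 to 3, against 0.11, 0.10 and -0.18 in corn oil libraries 1 to 3, relative to the corn oil mean on the log2 CPM scale. Klf9 stood at 0.23, 0.21 and 0.28 in the same BBP libraries. BBP libraries 1 and 2 were the low ones in this list, as they were for Crym. Without BBP library 1, 8 of the 12 genes were higher and the median was 0.08. Without corn oil library 1, 7 were, with a median of 0.04. With BBP libraries 1 and 2 left out 12 were, with a median of 0.36. Whether glucocorticoids had a part in the level of Klf9 was not tested.

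**Figure D4:**
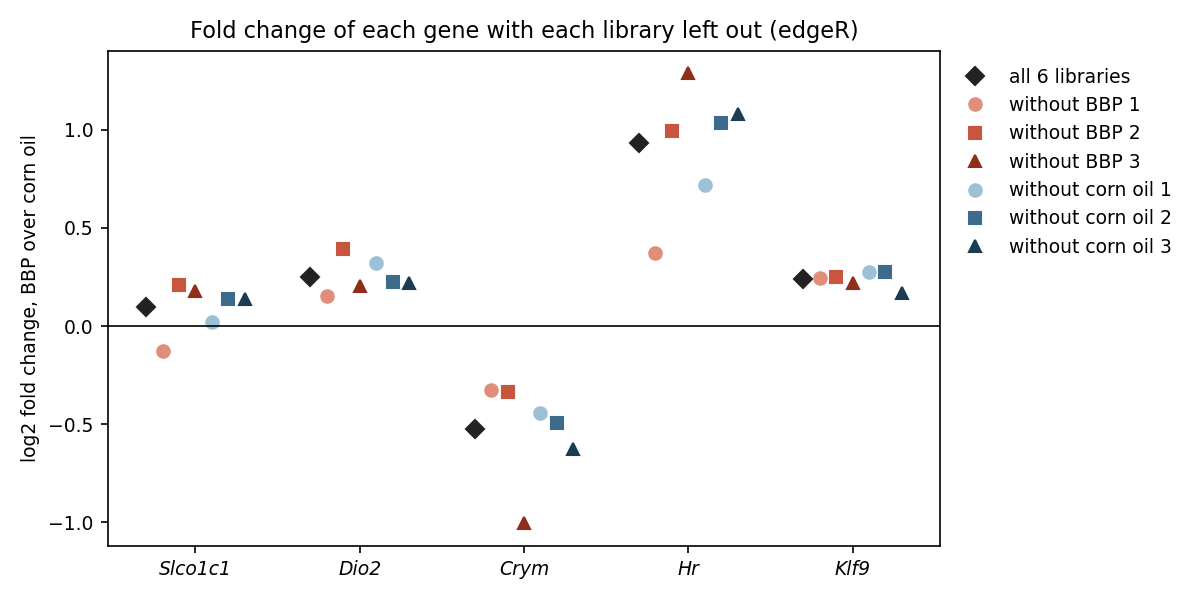
Log2 fold change of each gene (BBP over corn oil, edgeR) with all 6 libraries (black diamonds) and with each library left out in turn (coloured markers). Klf9 and Dio2 stayed above 0 and Crym below 0 in all 7 fits, Slco1c1 was below 0 without BBP library 1, and Hr ranged from 0.37 to 1.29 with 1 library left out.

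The list of other pathway genes held 47, of which 45 could be tested, and at an adjusted p under 0.05 edgeR called 0 of them. At an unadjusted p under 0.05 there were 5, with 2 higher and 3 lower in BBP, where 1.98% of all genes were higher and 1.37% lower. The median log2 fold change of the 45 was 0.04, against 0.01 over all tested genes, and 26 were positive, where 52.4% of all genes were.

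Among 8 carriers and transporters, 4 were higher and 4 lower, and 1 had an unadjusted p under 0.05. This was Ttr, the gene of transthyretin, which carries T4 and is made by the choroid plexus. Its log2 fold change was -1.84 ± 0.49 (SE, edgeR, unadjusted p = 0.00555, adjusted p = 0.953). Ttr averaged 51.5 ± 6.98 FPKM in BBP and 188 ± 155 FPKM in corn oil (SD, n = 3). Every BBP value lay below every corn oil value, and 5.25% of tested genes had such groups with BBP lower. The fitted value was below 0 for all 10 choroid plexus markers (median -0.54 on the log2 scale). Their summed FPKM was 49.8 to 63.4 in BBP and 85.7 to 375 in corn oil. Ttr is 1 of these 10 and made up most of each sum, with 44.5 to 58.5 FPKM in BBP and 81.4 to 366 in corn oil. The sums therefore largely repeat Ttr. Corn oil library 3 held the highest sum. Without it 3 of the 10 markers were positive and their median was -0.06. The log2 fold change of Ttr was then -0.92 ± 0.16 (SE, edgeR, unadjusted p = 0.000746, adjusted p = 0.999). With each library left out in turn it was -2.20 to -0.92 (edgeR, unadjusted p = 0.000746 to 0.0277). The part of choroid plexus tissue in the level of Ttr was not tested.

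The hormone receptor genes did not pass the test. Thra, the predominant receptor gene here, averaged 145 ± 21.4 FPKM in BBP and 161 ± 4.43 FPKM in corn oil, and Thrb averaged 4.23 ± 0.730 FPKM in BBP and 3.91 ± 0.435 FPKM in corn oil (SD, n = 3). Their log2 fold changes were -0.13 ± 0.11 and 0.13 ± 0.13 (SE). Rxrb, a retinoid X receptor gene whose product pairs with the hormone receptors, had -0.15 ± 0.09, and of 5 receptor and partner genes 2 were higher and 3 lower. Among 9 coregulators 6 were higher, and the coactivator genes Ncoa2 and Ncoa3 had 0.16 ± 0.08 and 0.34 ± 0.18. Ncoa3 shares 154 bases with Sulf2 on the opposite strand, and reads of the shared stretch may be uncertain in origin.

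Besides Hr and Klf9, 13 genes known to be raised by T3 in the rodent brain were followed, and 11 were higher in BBP, the median log2 fold change being 0.23. The list median was 0.53, 0.12 and -0.05 in BBP libraries 1 to 3, against 0.02, 0.07 and -0.09 in corn oil libraries 1 to 3, relative to the corn oil mean on the log2 CPM scale. BBP library 1 was the high one. Without it 8 of the 13 genes were positive with a median of 0.04, and with BBP libraries 1 and 2 left out 3 were, with a median of -0.06.

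Some genes of that list also mark cells that differed between libraries. It shares 3 genes with the list of 10 oligodendrocyte markers. The median of those markers was 0.56, 0.56 and -0.05 in BBP libraries 1 to 3, against -0.15, 0.29 and -0.13 in corn oil libraries 1 to 3. Of the 13 genes 1, higher in BBP, had an unadjusted p under 0.05 (edgeR), where 1.98% of all genes were higher at that level. That gene was 1 of the 3 shared ones, and 0 of the other 10 reached it. Without the shared genes 8 of 10 genes were positive with a median of 0.16, but with BBP library 1 also left out 5 of 10 were, with a median of 0.0088, and with BBP libraries 1 and 2 left out 2 of 10, with a median of -0.08. Homer1, a postsynaptic scaffold gene picked after its values were seen, had 19.3 FPKM in BBP library 1 and 6.80 to 8.22 FPKM in the other 5 libraries. Rasd2, a striatum-enriched GTPase gene likewise picked, had 25.6, 18.1 and 15.4 FPKM in BBP libraries 1 to 3, against 16.5, 15.6 and 14.5 FPKM in corn oil libraries 1 to 3. The part of these cells in the list was not tested.

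Of the hormones above the thyroid in the axis, Trh, the gene of thyrotropin-releasing hormone, had 1.56, 1.03 and 0.585 FPKM in BBP libraries 1 to 3, against 10.3, 0.651 and 6.35 FPKM in corn oil libraries 1 to 3. Corn oil library 2 lay inside the BBP range, and the log2 fold change of -2.42 ± 0.82 (SE, edgeR, unadjusted p = 0.0178, adjusted p = 0.953) went with high values in corn oil libraries 1 and 3. Tshb, the thyrotropin beta subunit gene, had 66 to 109 deposited counts in BBP and 53 to 60 in corn oil. It lies opposite Tspan2, which had 5019 to 7292 counts and overlaps it by 7254 bases, so the origin of its reads is uncertain. The thyrotropin receptor gene Tshr had 0 to 15 deposited counts per library and was not tested.

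**Figure D5:**
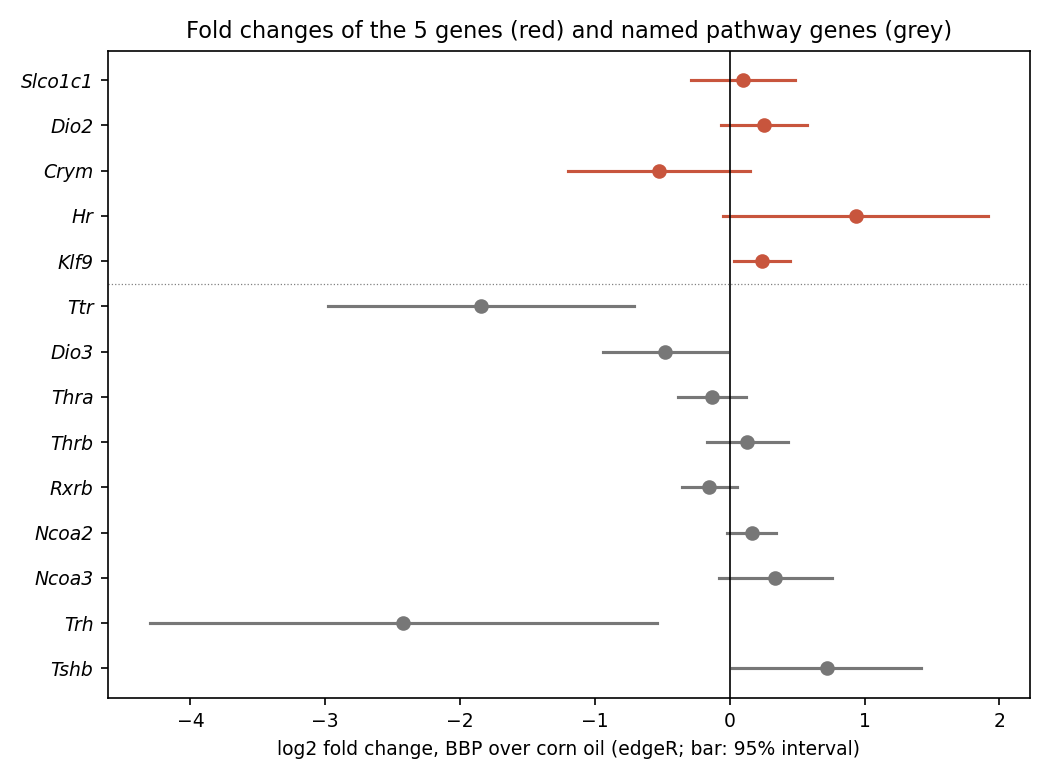
Log2 fold change of BBP over corn oil (points) with its 95% interval (bars, edgeR) for the 5 genes in red and for named genes of the pathway in grey. The interval excluded 0 for Klf9 alone among the 5, and for Ttr, Dio3, Trh and Tshb among the others shown, with an adjusted p of 0.953 for each.

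The genes whose pattern over the 6 libraries was most like each member were looked up among 11767 annotated genes with a mean of at least 1 FPKM, by Pearson's r on log2(FPKM + 1). All points are 6 libraries, and the third closest gene of a typical gene had r = 0.988, so high values are usual. Closest to Crym were Icam5, an adhesion molecule gene of telencephalic neurons, Cdip1, and Camkv, a synaptic pseudokinase gene, with r of 0.993 to 0.998. Icam5 had 59.9, 60.0 and 92.3 FPKM in BBP libraries 1 to 3, against 91.6, 86.6 and 80.8 FPKM in corn oil libraries 1 to 3, so BBP libraries 1 and 2 were the low ones there too. Closest to Hr were Baalc, Myo19 and Chrna4, a nicotinic receptor gene, with r of 0.988 to 0.995. Dio2 was most like Dennd4a, Dnajc3 and Utp23, with r of 0.989 to 0.994, and Slco1c1 was most like Nacc2, Aif1 and Osgepl1, with r of 0.991 to 0.996. For Klf9 the closest were Creb3l2, Irak2 and Herc3, with r of 0.970 to 0.987, below that of a typical gene.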

How the data were processed

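Hippocampal poly(A) RNA went into dUTP-marked, paired-end libraries whose adapters carried unique molecular identifiers, per the labels' protocols. Tools named in the submitters' processing notes, without role or order, are StringTie 2.1.6, HISAT2 2.2.1, cutadapt 1.9, edgeR, DESeq2 and UMI-tools, with the build mm10. Which tool counted, and with what strand setting, is not given in the sources used here. The deposited estimated counts are whole numbers, and how they were made was not settled here. FPKM values were taken as the authors deposited them.

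Counts were fitted over all genes with edgeR 4.0.16 in R 4.3.3 (TMM factors, filterByExpr, BBP against corn oil as sole term, Benjamini-Hochberg adjusted quasi-likelihood tests). Standard errors were derived from the F statistic and the fold change. Exact permutation tests were two-sided. Values are means and SD over 3 libraries. Alternatives were DESeq2 1.42.0, limma 3.58.1 on log2(FPKM + 1) or log2(FPKM + 0.1), other factors and filters, counts divided by 4, a replicate block and left-out libraries. Fits were tested on simulated data, where edgeR recovered 8 of 50 genes changed 1.5-fold and 36 of 50 changed 2-fold. It recovered 47 of 50 changed 4-fold, and called 12 of 20228 unchanged genes. A change of 1.5-fold or less would thus mostly be missed.

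Genes named were the 5 members, pathway genes at an unadjusted p under 0.05 or the 2 of smallest p in their role, fixed receptors and transporters, the 2 most abundant markers and the 3 most alike genes. Members, lists and rules were chosen with earlier results of these data known. Promoter windows are RefSeq's (GRCm38.p6), found for 3 of 5 members. Some genes that this rule names are not reported here.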

Additional observations from a re-analysis of the deposited data

How the results depend on the processing

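In all 16 alternative fits 0 of the 5 genes and 0 of the tested pathway genes passed an adjusted p of 0.05. The count of all genes called, 0 in the edgeR fit of all libraries, was 3 with DESeq2, 0 to 3 with each library left out and 10 without BBP libraries 1 and 2, a fit that leaves 1 treated library and assumes it varies like the corn oil ones. The log2 fold changes of Dio2 and Klf9 kept their sign in all 16, at 0.15 to 0.39 and 0.17 to 0.28. That of Slco1c1 was -0.12 to 0.21 with each library left out and -0.0942 without BBP libraries 1 and 2, where Crym was at 0.12 and Hr at -0.24. With each library left out Crym ranged from -1.005 to -0.325 and Hr from 0.37 to 1.29. The pathway genes at an unadjusted p under 0.05, 5 in number, were 2 in limma on log2(FPKM + 1) or log2(FPKM + 0.1). Those limma fits tested fewer pathway genes, with 11 of the 13 T3-raised genes and 6 of the 8 carriers and transporters. The number at that threshold was 3 in limma without a filter, 8 with the replicate block and 1 to 12 with each library left out. The share of all genes at that threshold moved as well. It was 685 of 20428 in the edgeR fit of all libraries and 494 of 20428 with the replicate block. In limma it was 396 and 392 of 13268, and 1068 of 31838 without a filter. The fit with 12, without BBP library 3, had 1530 of 21088. That with 1, without corn oil library 1, had 393 of 21155. The 11 positive T3-raised genes were 8 to 12 with each library left out and 3 without BBP libraries 1 and 2. That count, the Dio2 to Dio3 ratio and the values of Dio3 and Ttr with a library left out were chosen after seeing the data.

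The level relative to markers ranged, with each library left out, from -0.258 to 0.0865 for Slco1c1 against astrocytes, from -0.163 to 0.0251 for Slco1c1 against endothelial cells, from -0.0299 to 0.266 for Dio2 against astrocytes, and for Crym from -0.772 to -0.258 against CA1, from -0.799 to -0.184 against dentate granule and from -1.63 to -0.27 against striatal neurons. With the median of the astrocyte list Slco1c1 was at 0.0076. The cause of these changes was not tested.

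Libraries of equal number correlated at r = -0.08, 0.08 and -0.10 in their deviations over 20428 genes, and 2 of 6 libraries correlated best with their own number, so the numbers were not taken as pairs. The replicate block called 0 genes and gave log2 fold changes of 0.24 for Dio2, -0.63 for Crym, 0.77 for Hr and 0.24 for Klf9. With 3 libraries a group, the median standard error over all genes was 0.18 on the log2 scale, against 0.09 for Klf9 and 0.43 for Hr.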
